A study of Mus musculus with 29 samples.

Results

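The segments described here are short stretches of the mouse genome of chromatin type 5 that have a type 4 segment on one side and a segment of type 1, 2 or 3 on the other. The types come from the study's own segmentation of H2A ubiquitination (H2Aub), which divides chromosomes 1 to 19 into 31563 segments of 5 types in steps of 5 kb. Members were chosen by their type, by a length below 300 kb and by the types of their direct neighbours, so these 3 properties are given as a description and are not findings. Of 3775 type 5 segments, 1014 met the rule. The remaining type 5 segments were 1195 short segments between a pair of type 4 segments, 1124 short segments with no type 4 neighbour, and 442 segments of 300 kb or more.

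H2Aub was profiled with CUT&RUN, in which an antibody-tethered nuclease releases the DNA under a chromatin mark from few cells. The samples comprised 29 libraries in 16 groups of 1 to 3 libraries, 24 against H2Aub and 5 against H3K27me3. Wild-type H2Aub was measured in 16 libraries over 8 stages: GV oocytes (the germinal vesicle stage, before maturation), MII oocytes (metaphase II), zygotes, 2-cell, 4-cell and morula embryos, the inner cell mass, and epiblast of embryonic day 6.5. In this set the GV oocytes, the mothers of the 4-cell embryos and morulae and those of 2 of the 3 2-cell libraries were Eed (fl/fl) without Gdf9 on a B6/129 mixed background, and the remaining oocytes and mothers were WT on B6/DBA. All embryos in the series came from crosses with PWK. A further 6 H2Aub libraries were Eed MatKO: GV oocytes, 4-cell embryos and morulae from Gdf9-Eed (fl/fl) females (B6/129 mixed), in which a Cre driven by the oocyte gene Gdf9 removes Eed, so that the deletion is made in oocytes and is inherited as a lack of maternal product. The last 6 embryo libraries compared 4-cell embryos with overexpressed PR-DUB, an H2A deubiquitinase (OE), with their control (CTR), 3 libraries each over both marks, all from a WT cross of B6/DBA with PWK. A single H3K27me3 library of WT B6/DBA GV oocytes completed the set. The segmentation is 1 table for the whole series with no value per library, so it holds no comparison between these groups, no replicate error and no depth, and the table does not say which libraries entered it. The table carries no key to the types, and whether a type stands for more or less H2Aub, or at which stage, is not given in the sources used here. All counts below are complete counts over this 1 segmentation, set beside the same count over all segments or genes, and none was tested.

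H2Aub is a single ubiquitin on histone H2A, placed by Polycomb repressive complex 1 and removed by deubiquitinases such as PR-DUB. Polycomb repressive complex 2, of which Eed is a subunit, places H3K27me3, and both marks are best known for covering the CpG-rich promoters of silent developmental genes. In oocytes and early embryos both marks also spread over broad domains between genes, and a small set of genes, Sfmbt2 among them, is expressed from the paternal copy through H3K27me3 inherited from the egg.

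The microRNAs inside these segments are shown first because they are the shortest complete products encoded there. In all, 37 microRNA genes lay in 12 segments, and mature sequences were matched for 14 of these genes, giving 24 sequences with 21 different seeds (RefSeq, GRCm38.p6). The lines below give 10 of them, 5′ to 3′, with the seed (bases 2 to 8, which pair with target messages) in capitals. The microRNAs of the miR-302 cluster, which includes miR-367 and is abundant in pluripotent cells, lie within the body of Larp7, on the opposite strand to it, at chr3:127545228-127545807. Mir218-1 lies in Slit2 at chr5:48223942-48224051, Mir489 in Calcr at chr6:3721897-3722003, and Mir490 in Chrm2 at chr6:36421742-36421825.
miR-302b-3p: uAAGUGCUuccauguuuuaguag
miR-302d-3p: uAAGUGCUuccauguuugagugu
miR-302c-3p: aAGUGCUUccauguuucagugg
miR-302b-5p: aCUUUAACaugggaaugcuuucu
miR-302c-5p: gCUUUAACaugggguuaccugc
miR-302d-5p: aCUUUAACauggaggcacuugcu
miR-367-3p: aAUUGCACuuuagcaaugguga
miR-218-5p: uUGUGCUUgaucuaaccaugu
miR-489-3p: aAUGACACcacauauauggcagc
miR-490-3p: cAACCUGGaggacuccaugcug

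miR-302b-3p and miR-302d-3p had the same seed, AAGUGCU. The table's miR-302c-3p begins 1 base later in the same run of letters, which gives it the seed AGUGCUU. The 5p strands of miR-302b, miR-302c and miR-302d had a seed in common, CUUUAAC. The 22 microRNA genes of the Mir466, Mir669 and Mir297 families in Sfmbt2 and the 3p strand of miR-302a have no entry in that table and are named only.

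Promoters with a start site inside the segments ranged from no CpG at all to dense CpG islands, and 4 are printed to show both ends. They are the first pair in alphabetical order among the named genes of lowest CpG content and the pair of highest content. Each is the 250 bases before the start site on the strand of the gene (RefSeq, GRCm38.p6), with CG dinucleotides and TATAAA, or its reverse complement TTTATA, in capitals.
Krtap21-1 (chr16:89403775-89404024, minus strand): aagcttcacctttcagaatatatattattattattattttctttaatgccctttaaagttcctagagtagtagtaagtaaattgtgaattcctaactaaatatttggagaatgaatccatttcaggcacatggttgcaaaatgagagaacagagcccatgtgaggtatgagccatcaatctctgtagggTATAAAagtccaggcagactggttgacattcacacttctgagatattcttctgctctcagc
Krtap31-2 (chr11:99936041-99936290, plus strand): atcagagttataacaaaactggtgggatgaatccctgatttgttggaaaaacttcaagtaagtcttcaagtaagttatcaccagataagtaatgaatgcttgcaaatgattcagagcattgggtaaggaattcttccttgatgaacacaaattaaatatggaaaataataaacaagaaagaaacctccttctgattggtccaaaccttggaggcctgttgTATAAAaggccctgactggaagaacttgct
Mzt1 (chr14:99046137-99046386, minus strand): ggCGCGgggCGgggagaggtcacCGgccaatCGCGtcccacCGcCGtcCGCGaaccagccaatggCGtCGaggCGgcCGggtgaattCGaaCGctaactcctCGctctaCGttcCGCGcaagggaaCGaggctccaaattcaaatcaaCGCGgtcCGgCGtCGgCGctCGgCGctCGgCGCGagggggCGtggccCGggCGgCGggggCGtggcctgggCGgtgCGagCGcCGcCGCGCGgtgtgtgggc
Nrip1 (chr16:76373050-76373299, minus strand): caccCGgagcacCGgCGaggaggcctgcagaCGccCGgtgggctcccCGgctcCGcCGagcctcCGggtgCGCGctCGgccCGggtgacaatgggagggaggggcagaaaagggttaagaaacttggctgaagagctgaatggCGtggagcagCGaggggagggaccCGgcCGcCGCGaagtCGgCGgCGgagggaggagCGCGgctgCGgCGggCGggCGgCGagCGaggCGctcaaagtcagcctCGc

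Krtap21-1 and Krtap31-2, genes of keratin-associated proteins of the hair shaft, had 0 CG dinucleotides and a TATAAA. Krtap4-16 was the same in both respects, and Lce1i, a gene of the cornified envelope of skin, had 0 CG dinucleotides and no TATAAA. Mzt1, a component of the complex that nucleates microtubules, had 44 CG dinucleotides and a CpG observed to expected ratio of 1.30. This ratio divides the number of CG dinucleotides by the number that the C and G content would give at random. Nrip1, a corepressor of nuclear receptors, had 32 and a ratio of 0.992 at the start site shown. Dis3, a ribonuclease of the exosome, had 24 and 0.963, and Slc1a1, a glutamate transporter, had 27 and 0.873. None of these 4 CpG-rich promoters held TATAAA on either strand.

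The 1014 segments covered 59.66 Mb, and 2.42% of the 5 kb bins of chromosomes 1 to 19 lay in one. Their median length was 30 kb, with quartiles of 15 and 75 kb and a range of 5 to 295 kb. Most were much shorter than the length limit: 461 segments (45.5%) were 25 kb or shorter, 184 (18.1%) were 100 kb or longer, and 58 consisted of 1 bin. At the limit, 15 segments came within 25 kb of it and 5 of them were 295 kb. Among the 128 type 5 segments that met the rule in every way but length, the shortest were 305 and 310 kb, 5 exceeded the limit by no more than 25 kb, and the median was 580 kb. The longest of those reached 11205 kb.

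The other neighbour was of type 1 for 364 segments (35.9%), of type 2 for 345 (34%) and of type 3 for 305 (30.1%). Segments beside type 3 were the shortest, with a median of 25 kb against 35 kb beside type 1 and 40 kb beside type 2. A length of 100 kb or more was reached by 10.8% of those beside type 3, by 20.1% beside type 1 and by 22.6% beside type 2. All 3 kinds ran from 5 to 295 kb, so their lengths overlapped over the whole range. The type 4 neighbour lay at the lower coordinate of 511 segments (50.4%) and at the higher coordinate of 503.

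**Figure D1:**
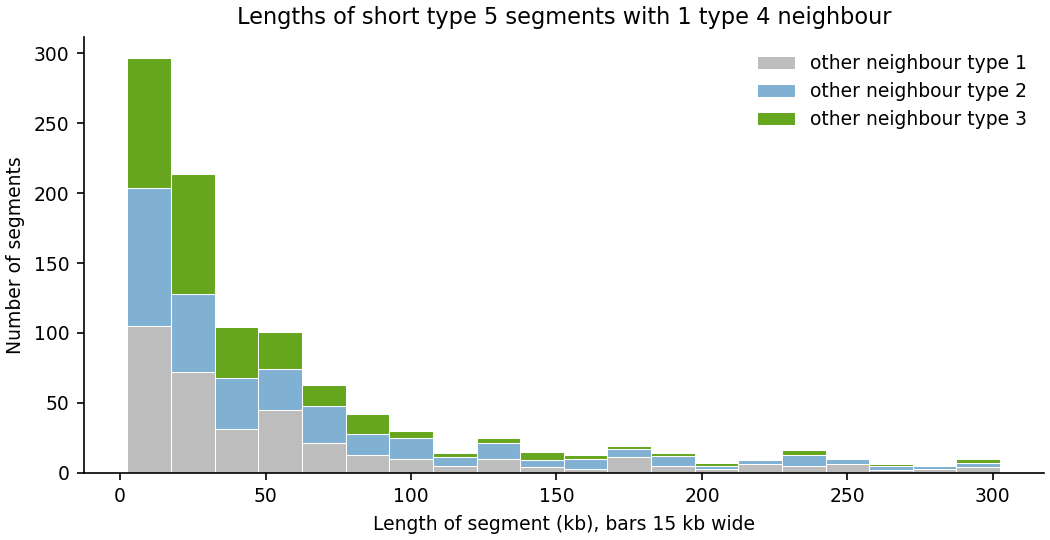
Number of short type 5 segments with 1 type 4 neighbour (vertical axis) by their length in kb (horizontal axis, bars 15 kb wide), stacked by the type of the other neighbour. Most of the 1014 segments stand at the left, with a median of 30 kb, and few reach the limit of 300 kb.

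The type 4 neighbours were of similar size. The 873 distinct type 4 neighbours had a median of 30 kb (quartiles 15 and 60 kb, range 5 to 540 kb). Of the segments, 506 (49.9%) were longer than their type 4 neighbour and 55 were equal to it. The segment was the longer of the pair in 58.3% of cases beside type 2, 50.5% beside type 1 and 39.7% beside type 3. Counted once each, the other neighbours had a median of 55 kb for type 1 (351 segments), 40 kb for type 2 (333) and 20 kb for type 3 (291). The same type 4 segment carried such a segment on both sides in 141 cases. These shared type 4 segments had a median of 25 kb, and the others 30 kb. In 84 of the 141 pairs the longer flank was at least 2 times the shorter. A further 39 segments of type 1, 2 or 3 lay between a pair of the short type 5 segments.

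Past the type 4 neighbour, the next segment was again of type 5 for 653 segments (64.4%), of type 3 for 263 (25.9%), of type 2 for 77 (7.59%), of type 1 for 20 (1.97%) and of type 4 in 1 case. On the far side of the other neighbour the mix was wide, with 253 segments followed there by type 1, 245 by type 3, 205 by type 5, 187 by type 2 and 120 by type 4, while 4 met a chromosome end. The rule itself makes each segment the end of a run in which types 4 and 5 alternate. The shortest possible run is the segment with its type 4 neighbour. There were 1219 such runs of at least 2 segments, of which 807 ended in one of these short type 5 segments and 207 had one at both ends. A run that ended in one had a median of 3 segments and a median span of 150 kb. The longest had 22 segments, and the widest spanned 6570 kb on chromosome 4. Of the 1014 segments, 361 (35.6%) stood in a run of 2, beside a lone type 4 segment, and 47 stood in runs of 10 or more. The far end of the run was a type 4 segment for 550 of them (54.2%), another of the short type 5 segments for 414 and a type 5 segment of 300 kb or more for 50.

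In the 50 kb next to the type 4 border, 64.9% of the positions on the short segment's side were type 5, and 62.5% on the opposite side were type 4. Both values follow from the choice of the segments. Farther out, at 100 to 200 kb, type 5 made up 25.3% on the short segment's side and 29.5% past the type 4 side, and type 4 made up 13.4% and 25%. Type 1 made up 30.9% and 20.4%. Over all chromosomes the shares were 23.98% for type 5, 13.61% for type 4 and 32.18% for type 1, close to those on the short segment's side. The choice of the segments also enters the values at this distance. Of the segments, 184 (18.1%) were 100 kb or longer, so part of the type 5 there lay in the segments themselves. The type 4 neighbours reached up to 540 kb and entered the type 4 share on their side in the same way. Gene start sites numbered 10.4 per Mb in the 50 kb on the type 4 side and 8.04 per Mb in the 50 kb on the other.

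**Figure D2:**
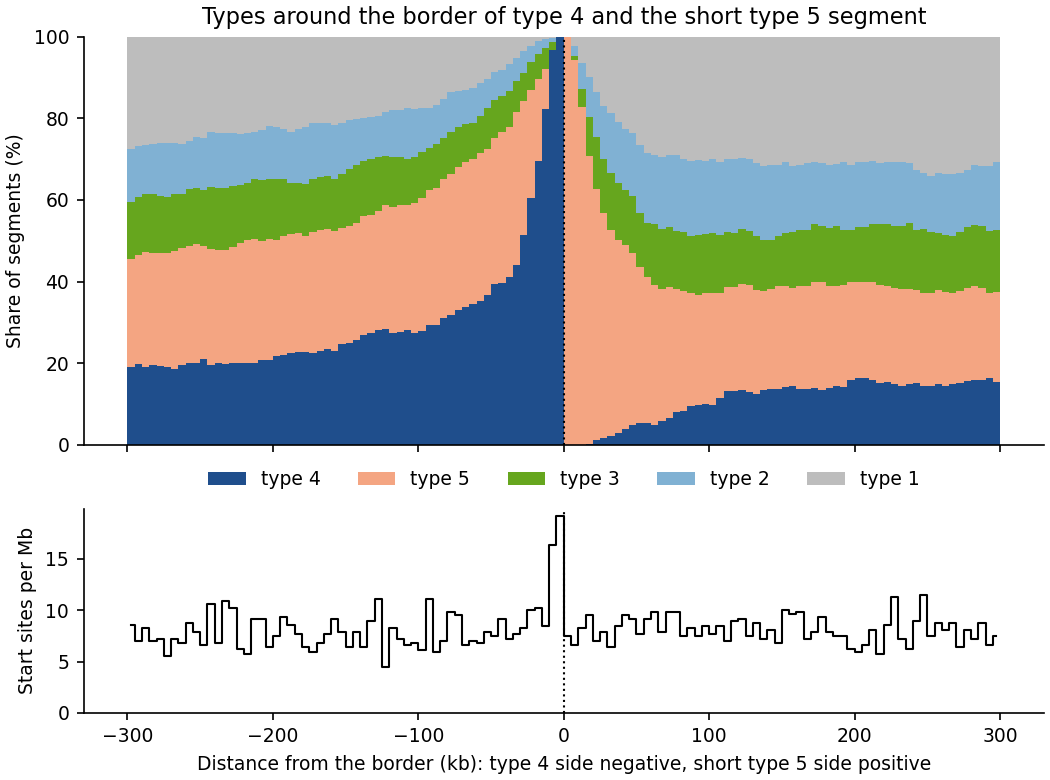
Upper panel: share of the 1014 segments (vertical axis, %) with each type at each distance in kb from the border of type 4 and the short type 5 segment (horizontal axis, type 4 side negative, bins of 5 kb). Lower panel: protein-coding gene start sites per Mb at the same distances, which average 10.4 in the 50 kb on the type 4 side and 8.04 in the 50 kb on the short segment's side.

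Genes were sparser in the segments than in the genome at large. With the RefSeq annotation, 324 of 20558 protein-coding genes (1.58%) had most of their body in the segments, and 215 lay wholly inside one. This was 5.43 genes per Mb, against 8.35 over all chromosomes, 7.86 in the type 4 neighbours, 3.12 in short type 5 segments between type 4 segments, 5.08 in short type 5 segments with no type 4 neighbour and 2.34 in type 5 segments of 300 kb or more. Counted by gene body, the density had the same order as that of the other neighbours. It was 7.56 per Mb in segments beside type 1, whose type 1 neighbours had 9.07, and 3.04 beside type 2, whose type 2 neighbours had 2.40. Beside type 3 it was 5.59, and the type 3 neighbours had 8.05. Counted by start sites, without chromosome 18, the order was not the same. The segments beside types 1, 2 and 3 had 9.35, 2.91 and 4.67 start sites per Mb. Their type 1, 2 and 3 neighbours had 8.47, 1.93 and 12.5.

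A protein-coding gene overlapped 487 segments (48.0%), where the background was 44.7% of all type 5 segments and 60.9% of all segments. The share was 56.3% beside type 1, 41.2% beside type 2 and 45.9% beside type 3. No protein-coding gene touched 527 segments (52.0%), and 191 segments (18.8%) lay wholly inside the body of a gene. Genes mostly inside the segments had a median length of 11.9 kb, against 17.6 kb for all. Only genes with over 50% of their body in segments shorter than 300 kb could count, which favours short genes. The genes inside were unevenly spread: 25 segments with 3 or more whole genes held 116 of the genes. Over all kinds of annotated gene, 888 of 46709 (1.90%) had most of their body inside. Among them were 222 long noncoding RNA genes (1.80% of their kind), 236 pseudogenes (2.68%), 28 snoRNA genes (2.19%) and 37 microRNA genes (3.26% of 1136), and 22 of the 37 belonged to the Sfmbt2 cluster.

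The border with type 4 lay in genes about as often as other borders of its kind, and the border with type 1 more often. The type 4 border lay in a protein-coding gene body for 307 segments (30.3%), against 31.0% of all borders of types 4 and 5 and 40% of all borders. The other border did so for 342 (33.7%). Beside type 1 that share was 40.9%, where all borders of types 1 and 5 had 23.8%. Beside type 2 it was 27.8% against 23.8%, and beside type 3 it was 31.8% against 32.8%. A start site lay within 10 kb of the type 4 border in 19% of segments, against 12.4% of all borders of types 4 and 5 and 19.1% of all borders. For the other border the share was 19.8% beside type 1, where all borders of types 1 and 5 had 9.54%. It was 3.14% beside type 2 against 3.90%, and 18.7% beside type 3 against 19.4%. These shares over all borders include the borders of the segments described here.

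On the chromosomes with promoter sequences, 325 start sites lay in 185 of 940 segments. They belonged to 294 genes. Of these start sites, 151 (46.5%) were transcribed toward the type 4 border and 143 (44.0%) lay in the part of the segment nearer to it. Among genes with most of their body inside the segments on those chromosomes, 82.1% had a sequence, the same share as over all protein-coding genes there. The CpG observed to expected ratio of the 325 promoters had a median of 0.291 with quartiles of 0.110 and 0.678, against a median of 0.547 over all 20085 promoters. A ratio over 0.6, a usual mark of a CpG island, was found at 100 of them (30.8%), where the background over all promoters was 45.9%. TATAAA on either strand occurred in 77 (23.7%), where the background was 11.7%, and in 30.0% of promoters in all type 5 segments.

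The CpG ratio of promoters also differed by the other neighbour, in another order than the gene density. The median ratio was 0.512 beside type 3, 0.305 beside type 1 and 0.158 beside type 2, and 40.3%, 35.1% and 6.56% of the promoters passed 0.6. The same order was seen in the neighbours themselves, with medians of 0.676 in type 3, 0.524 in type 1 and 0.265 in type 2 neighbours. The type 4 neighbours had 0.436, short type 5 segments between type 4 segments 0.289, those with no type 4 neighbour 0.193 and type 5 segments of 300 kb or more 0.178. Olfactory and vomeronasal receptor genes, which have CpG-poor promoters and come in large clusters, lowered the medians. Without them the median was 0.373 in the segments and 0.588 over all promoters, and in short type 5 segments with no type 4 neighbour it was 0.403, above that of the segments where it had been below. The quartiles of the 4 kinds of type 5 segment overlapped. So did those of segments beside type 2 (0.084 and 0.347, 61 promoters) and beside type 3 (0.250 and 0.744, 62 promoters). The quartiles beside type 2 lay below only those of another kind of region, the type 3 neighbours (0.398 and 0.850).

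**Figure D3:**
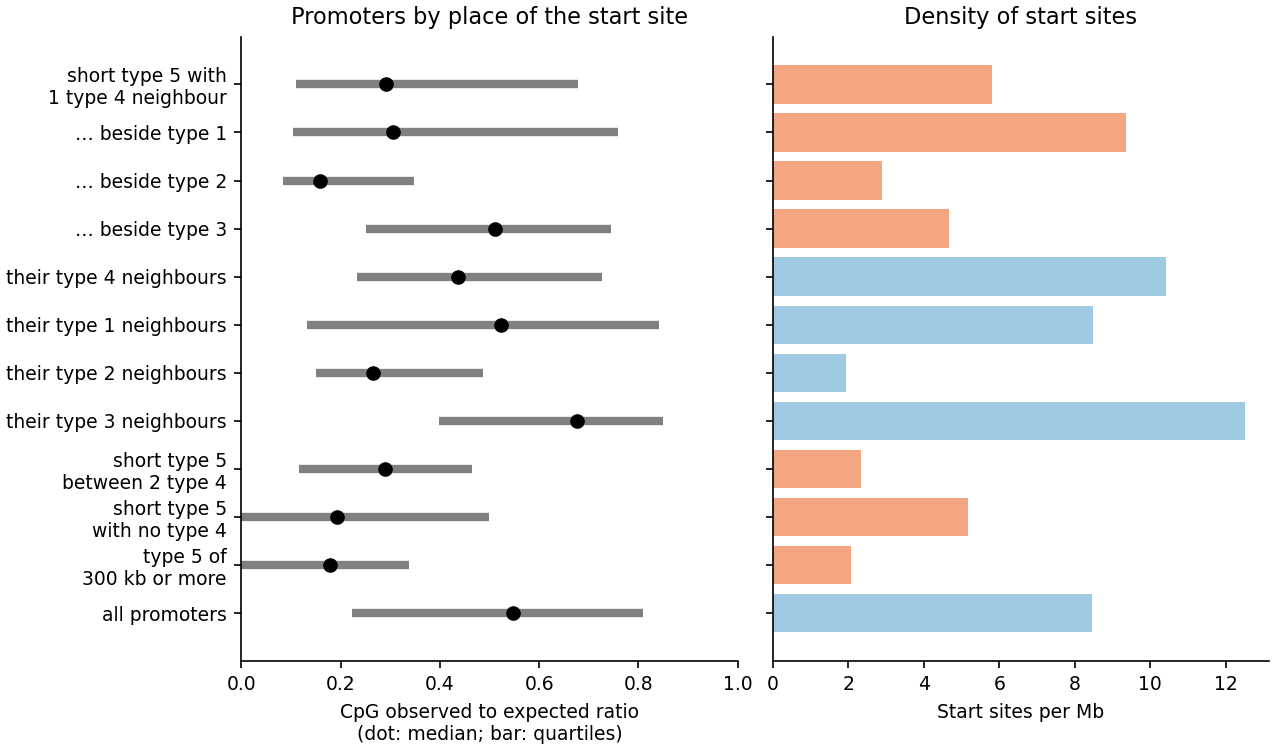
Left: CpG observed to expected ratio of promoters (horizontal axis; dot, median; bar, quartiles) by the kind of segment that holds the start site (rows). Right: protein-coding start sites per Mb in the same segments, with type 5 segments in orange and others in blue. Promoters in the short type 5 segments have a median of 0.291, lower beside type 2 (0.158) than beside type 3 (0.512).

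Among gene families fixed in lists, keratin and keratin-associated protein genes had the highest share in the segments, 11 of 109 (10.1%). Another 23 (21.1%) lay in the type 4 neighbours. All 11 were keratin-associated proteins, among them Krtap21-1, Krtap31-1, Krtap31-2 and Krtap4-16, and none was a keratin. They lay in only 3 segments, on chromosomes 11 and 16. Olfactory receptor genes were the most in number with 44 of 1103 (3.99%), such as Olfr1, Olfr10, Olfr13 and Olfr1387. Type 5 segments of any kind held 614 of the list, and 9.32% of all protein-coding genes. The receptors were thus common in type 5 as a whole and not in these segments alone. Solute carriers had 9 of 376 (2.39%), with Slc17a6, a vesicular glutamate transporter, Slc1a1, Slc22a19 and Slc25a21 first in the alphabet. Serpins, inhibitors of proteases, had 3 of 62 (4.84%): Serpina3c, Serpina3j and Serpina3k. Protocadherins and cadherins had 3 of 95, Pcdhb5, Pcdhb6 and Pcdhb7 of the protocadherin beta cluster. A further 13 (13.7%) lay in type 4 neighbours, 12 of them from the same cluster. Zinc finger protein genes had 5 of 388: Zfp189, Zfp267, Zfp397, Zfp706 and Zfp871. Vomeronasal receptors had 4 of 349: Vmn1r49, Vmn1r50, Vmn2r118 and Vmn2r27. The share over all protein-coding genes was the 1.58% given above. In the type 4 neighbours that share was 1.71% (351 genes).

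Lists of developmental regulators had 1 gene each in the segments, where 1.58% of all protein-coding genes lay. The type 4 neighbours held 1.71% of all protein-coding genes. Of 164 homeobox genes (0.610%), 1 lay mostly inside, Nanog, a transcription factor of the pluripotent epiblast. Another 11 (6.71%) lay in type 4 neighbours, including Isl1, Nkx2-1 and Meis2. Of 59 bHLH factors (1.69%), Ferd3l was inside, while Neurod6, Tal2 and Twist1 (5.08%) were in type 4 neighbours. Sox5, a factor of cartilage and neural development, was the 1 of 75 Sox, Fox and T-box genes (1.33%), and Sfrp4, a secreted Wnt antagonist, the 1 of 85 Wnt, Fgf, Bmp and Hedgehog genes (1.18%). Apart from the homeobox genes, the shares in the segments were near that of all genes. Each share in the segments rests on 1 gene, so the lower homeobox share does not show a depletion. Single genes came from 4 further lists: Calcr, the calcitonin receptor, of 67 imprinted genes, Grik1, a kainate receptor subunit, of 45 transmitter receptor genes, Cyp4v3, a fatty acid hydroxylase, of 99 cytochromes P450, and Nanog again of 56 pluripotency and early lineage genes. Slit2, a repellent ligand of axons, and Cadm3, a neuronal adhesion molecule, were the pair from 109 adhesion and guidance genes. Lists with 0 genes mostly inside were the 134 ion channels, 77 ribosomal proteins, 71 defensins, 50 oocyte genes and 51 Polycomb and deubiquitinase genes.

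Further families were named because their genes were seen in the segments. Their shares above the 1.58% of all protein-coding genes follow from that choice. Of 14 interferon alpha genes, antiviral cytokines in 1 cluster on chromosome 4, 9 had most of their body in 3 of the segments. Late cornified envelope genes had 6 of 21 in 1 segment, and interferon-induced Ifit genes 3 of 6 in 1 segment. The complement proteases C1ra, C1rb and C1s1 were 3 of 5 in 1 segment. The C-type lectins had 5 of 33 in 1 segment and the major urinary proteins 4 of 22 in 2 segments. Single immune genes seen in the same way were Rag2, part of the recombinase of lymphocytes, wholly inside a 30 kb segment, Il7r, the interleukin 7 receptor, wholly inside one of 70 kb, and Il2, a T cell cytokine, with 81.8% of its body in one of 60 kb. Dazl, a germ cell RNA-binding protein, had 74.6% of its body in a 20 kb segment between 15 kb of type 4 and 10 kb of type 3. Pgr, the progesterone receptor, had 86.1% in one of 60 kb.

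The segments with the most whole genes held clusters of related genes. The most genes, 10, lay in chr11:99835001-99955000, a 120 kb segment with 330 kb of type 4 above it and 15 kb of type 1 below, which held 2300003K06Rik, Krtap4-16, Gm11568, Gm11559 and other genes of this keratin-associated protein cluster. The interferon alpha segment chr4:88800001-88860000 was 60 kb long and held 9 genes, with Gm13285, Gm13287, Gm13288 and Ifna7 first by position. A 220 kb segment, chr9:39960001-40180000, also held 9, 8 of them olfactory receptor genes. The late cornified envelope segment chr3:92735001-92865000 of 130 kb held 7, from Lce1g, Lce1h, Lce1i and Lce1j onward. Another 7 genes, Olfr441, Olfr237 and Olfr437 among them, lay in chr6:43030001-43260000. All of these had a type 1 segment on their other side. A segment that tied with the last of them, chr11:49280001-49470000 (190 kb), lay beside type 2 and held 7 olfactory receptor genes, Olfr10 and Olfr1387 among them.

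The longest segments that held a whole gene differed in what they contained. Beside type 1, chr14:98890001-99160000 (270 kb) held Bora, an activator of mitotic kinases, Dis3 and Mzt1, 3 genes used by dividing cells, and had only 5 kb of type 4 on its other side. A 250 kb segment on chromosome 6 held Kel, a blood group peptidase, with Pip, Sval2 and Llcfc1, and 240 kb on chromosome 12 held Prps1l3. Beside type 2, 260 kb on chromosome 13 held Gpr141, Nme8 and Gpr141b, 260 kb on chromosome 3 held Emcn, an endothelial sialomucin, and 250 kb on chromosome 12 held Ferd3l. Beside type 3, chr14:103780001-103965000 (185 kb) held Ednrb, the endothelin receptor that neural crest cells need, in a run of 4 alternating segments. The next were 155 kb with Nrip1 and 150 kb with Herc6. The longest bodies wholly inside 1 segment were Emcn (90.0 kb), Ano5 (88.7 kb), Nrip1 (86.4 kb), Herc6 (84.1 kb), Trat1 (79.8 kb) and Slc49a4 (75.3 kb).

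Other segments lay inside much larger genes, of which the 6 longest are given. Ctnna3, an alpha-catenin with a body of 1574 kb, contained 1 segment of 10 kb, and Rbms3, an RNA-binding protein of 1057 kb, contained 1 of 5 kb. Gpc5, a glypican of 1433 kb, and Nrg1, a neuregulin of 1084 kb, each contained 1 of 95 kb. Pde4d, a cyclic AMP phosphodiesterase of 1302 kb, contained 3, in sum 295 kb or 22.7% of its body. Of these 6, Sox5 had the largest part of its body in such segments, 50.8% of 954 kb. Its 2 segments of 230 and 255 kb lay on either side of the same 25 kb type 2 segment.

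The 5 longest type 4 neighbours bordered short type 5 segments of 10 to 40 kb, where the median of all such segments was 30 kb. The longest, 540 kb on chromosome 9 with Kcnj5, Kcnj1, Fli1 and Ets1, bordered a segment of 40 kb. The next, 410 kb with Etv6, bordered 15 kb, and 390 kb with the homeobox gene Pknox2 bordered 40 kb. Both of 380 kb, one of them with Foxb1, a forkhead factor, bordered 10 kb.

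Sfmbt2, a Polycomb-group gene expressed from the paternal copy, was crossed by 8 segments of 4 types, and 48.9% of its 225 kb body lay in 2 of the short type 5 segments. From the lower coordinate, a 225 kb type 4 segment was followed by a short type 5 segment, chr2:10415001-10470000, then 5 kb of type 3, 30 kb of type 1, 5 kb of type 3 and the second short type 5 segment, chr2:10510001-10565000, which met 30 kb of type 4. Both short segments were 55 kb long. The gene encloses 72 microRNA genes, of which 8 lay in the first short segment, 7 and 6 in the pieces of type 3, 37 in the type 1 piece and 14 in the second short segment. The 22 in the short segments stood at their far ends, 46.7 to 54.7 kb from the type 4 border. For the other genes of this inheritance mode, Gab1, Jade1, Slc38a4 and Smoc1, chosen as known examples, the body lay 65.7% to 93.7% in type 4 and 0% in these segments. Another 6.27% to 16.4% of their bodies lay in type 5 segments of other kinds. Of the Sfmbt2 body, 33.2% lay in type 4.

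The other 15 microRNA genes lay in 10 segments. The 5 genes of the miR-302 cluster stood 20.2 to 20.7 kb from the type 4 border of a 50 kb segment that held Larp7, a 7SK RNA-binding protein, whole, with 55 kb of type 4 and 30 kb of type 1 beside it. That segment ended a run of 15 alternating segments. The promoter of Larp7 had a CpG ratio of 1.09. Nanog lay whole in a 95 kb segment between 15 kb of type 4 and 5 kb of type 1, and its start sites had ratios of 0.182 and 0.104. Mir218-1 stood 219 kb from the type 4 border in a 295 kb segment, one of the longest, that took up 90.4% of Slit2. Mir489 and Mir653 stood 38.0 and 38.6 kb from the type 4 border in a 60 kb segment that held 75.9% of Calcr.

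**Figure D4:**
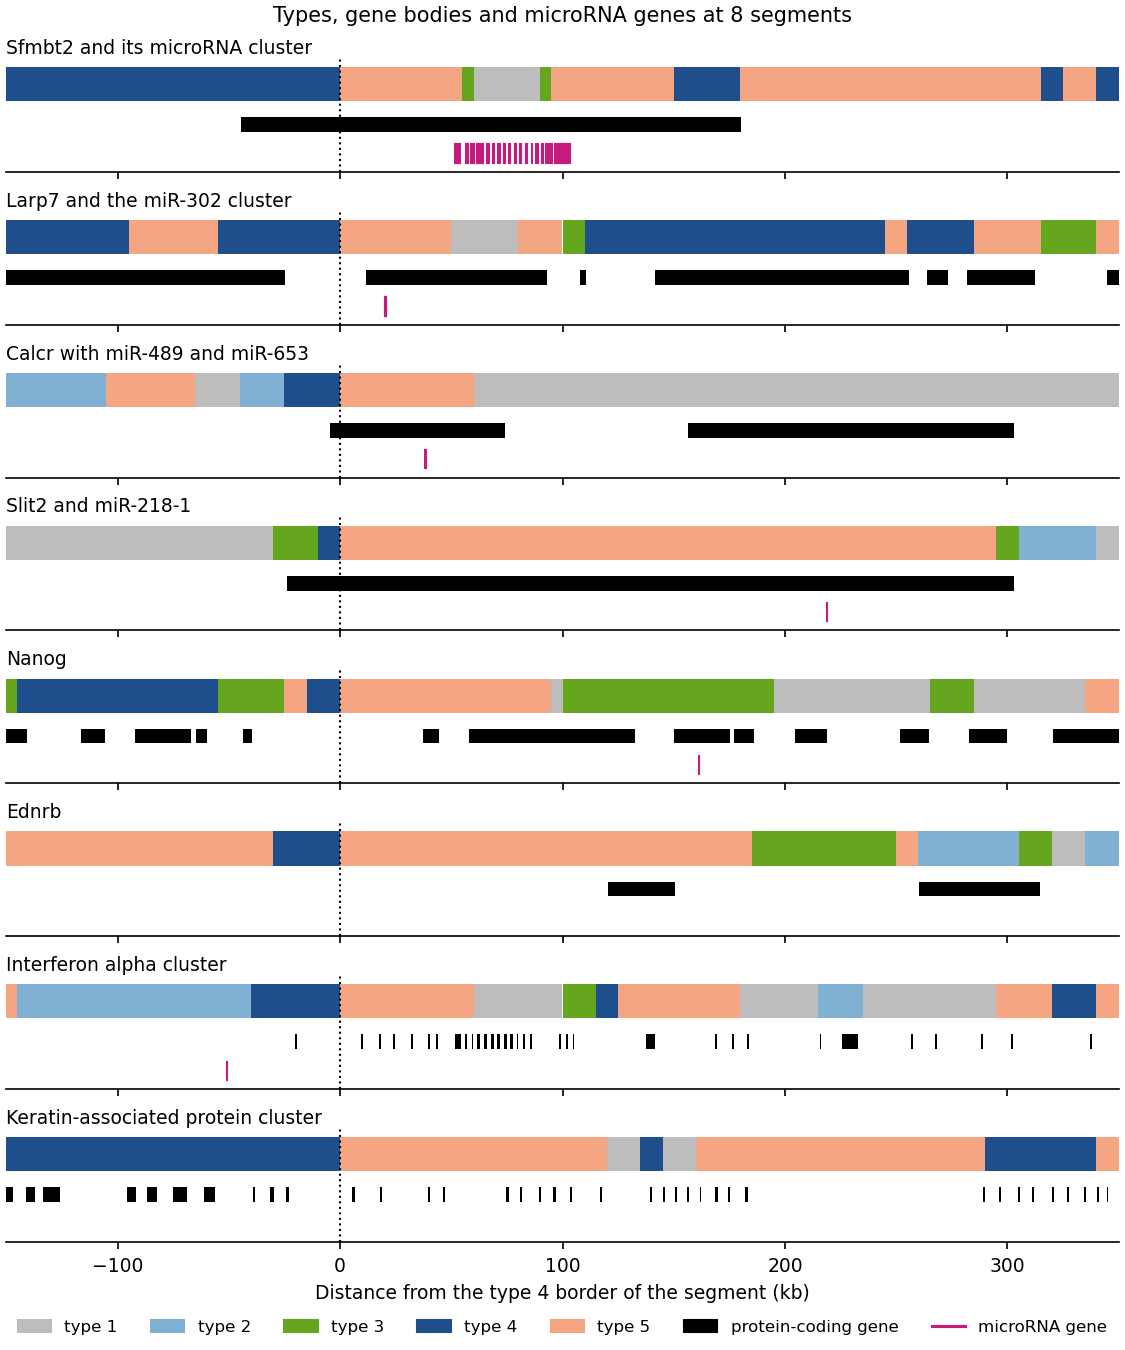
Types (upper blocks), protein-coding gene bodies (black) and microRNA genes (pink ticks) around 8 of the segments, by distance in kb from the segment's type 4 border (dotted line, type 4 side negative, all drawn to 1 scale and turned so that type 4 lies to the left). In Sfmbt2 the microRNA cluster spans the type 3 and type 1 pieces and the ends of both 55 kb segments that adjoin them, and Slit2 is almost filled by a 295 kb segment.

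The segments were found on every chromosome of the table, at 41.2 per 100 Mb overall and a median over chromosomes of 40.6. The densest were chromosome 18 with 81.6 per 100 Mb (74 segments), chromosome 19 with 66.7 and chromosome 3 with 62.5 (100 segments), and the sparsest was chromosome 5 with 23.1. As a share of all type 5 segments they made up 20.3% to 35.7% per chromosome, a narrower spread than the density.

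**Figure D5:**
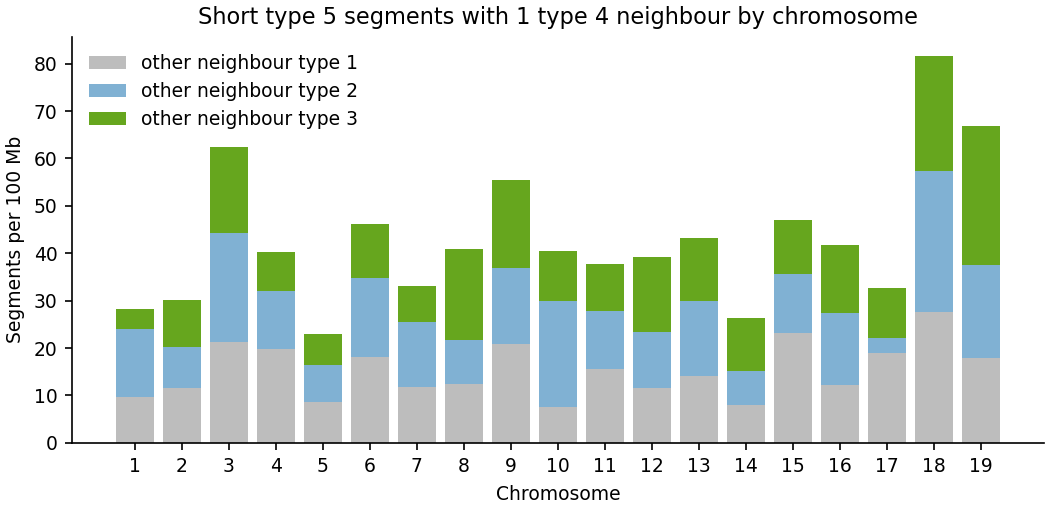
Short type 5 segments with 1 type 4 neighbour per 100 Mb (vertical axis) on chromosomes 1 to 19 (horizontal axis), stacked by the type of the other neighbour. Chromosome 18 is highest at 81.6 and chromosome 5 lowest at 23.1.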

How the data were processed

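The libraries are CUT&RUN profiles of both marks. The submitters' processing notes name the build mm10 and, with no role, deepTools 3.0.2, Picard 2.8.0, Bowtie2 2.3.4.3 and Trim Galore 0.4.5. The authors' deposited table gives chromosome, start, end and a type label from 1 to 5 for each segment, a category and not a quantity; the ChromHMM input, version and key were not given in the sources used here. Type boundaries are multiples of 5 kb.

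Segments were sorted and touching segments of the same type merged, which joined 0. As deposited, 118 neighbouring segments overlapped and 21 were separated by a gap; 1 of the chosen segments did not touch both neighbours, and 0 overlapped a segment of another type. Positions of 46709 genes came from RefSeq for GRCm38.p6, the assembly of mm10; 333 genes on scaffolds were left out. A gene was counted as mostly inside where the segments together held over 50% of its body. Sox5 counted in this way through 2 segments. The CpG observed to expected ratio is the number of CG times the length, divided by the number of C times the number of G, over 250 bases before each start site. Promoter sequences of chromosome 18 were not used here. Counting used Python 3.11.15 and pandas 2.3.3.

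With 1 segmentation and no value per library, no test was made, and depth and error are unknown. Alternatives were the length limit, merging, the handling of neighbours, single bins, and how a gene is assigned. Named genes were taken by rule: all of a list's genes in the segments up to 5, otherwise the first 4 in the alphabet; the 3 longest segments with a whole gene beside each neighbour type; the 6 longest genes inside and the 6 longest around a segment; the 5 segments with most genes (a sixth tied with the last and is named too); the 5 longest type 4 neighbours; and promoters of highest and lowest CpG ratio. MicroRNA genes, Sfmbt2, Larp7, the interferon and other added families and the single immune and germ cell genes were chosen after their values were seen. The segments and lists were chosen with earlier results of these data known.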

Additional observations from a re-analysis of the deposited data

How the results depend on the processing

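Of 32 alternatives to the 9 main values, 23 left the value within its range. For counts that range was wide, 676 to 1521 for the segments and 216 to 486 for the genes mostly inside. Skipping the merging could change nothing, as it joined 0 segments. Counts and medians have no direction, so reversal could not be judged. Without olfactory and vomeronasal receptor genes the median CpG ratio was 0.373, the upper limit of its range, and was counted as within it. The alternatives that moved a value were these. Requiring a type 4 neighbour of at least 25 kb, chosen after seeing the data, left 607 segments with a median length of 25 kb. The mean length was 58.8 kb where the median was 30 kb. The share of segments overlapping a protein-coding gene was 40.7% when an overlap of at least 5 kb was asked for, and 51.2% among segments of at least 25 kb, also chosen after seeing the data. Counting only genes wholly inside gave 215 genes and counting any overlap gave 637. The density was 14.9 genes per Mb with all annotated genes and 4.63 without olfactory and vomeronasal receptor genes. These shifts follow from what each alternative counts.

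No paired analysis was possible because the table holds 1 segmentation with no value per library, and for the same reason the values have no version without a given library. The depth behind each type is unknown.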
